A study of Mus musculus with 24 samples.

Results

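The 9 genes described here are targets of the hypoxia-inducible factors (HIF) that belong neither to glycolysis nor to the growth of blood vessels: *Ankrd37*, *Adm*, *Bhlhe40*, *Ndrg1*, *Mxi1*, *Higd1a*, *Ero1l*, *Cited2* and *Wsb1*. They were chosen by name, and every non-control probe that carries one of these names on the array was taken, which gave 11 of 55681 probes. Of the 9 genes, 6 passed the filter on dim probes and were among the 9140 genes tested. The array still uses the name *Ero1l* for the gene that RefSeq now calls *Ero1a*.

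HIF is a transcription factor made of an oxygen-sensitive alpha subunit and a stable beta subunit. With enough oxygen, prolyl hydroxylases mark the alpha subunit and the VHL ubiquitin ligase sends it to degradation, whereas in low oxygen it accumulates, pairs with the beta subunit and binds short hypoxia response elements near its target genes. Beside sugar breakdown and vessel growth, these targets include repressors of transcription, feedback inhibitors of HIF itself, a secreted vasodilator and proteins of mitochondria and of the endoplasmic reticulum.

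The measurements came from the *M. gastrocnemius* of male C57BL/6JOlaHsd mice, which arrived at 10 weeks of age, were fed a low-fat diet (10% of energy from fat) for 3 weeks and then a high-fat diet (40% of energy from fat) for 6 weeks, and were fasted before the exposure. The 12 Norm mice stayed in normoxia (20.9% oxygen) and the 12 Hypox mice were exposed to 12% oxygen for 6 h, so that the diet and the fast were shared by both groups. Each of the 24 arrays held the RNA of the whole muscle of 1 mouse in Cy5 and a pool of all samples in Cy3, and each of 6 slides held 2 Norm and 2 Hypox arrays. Every value below is a log2 ratio of the mouse over the pool, so that a value of 0 is the level of the pool. In whole muscle, a change in the share of a cell type and a change of the RNA per cell cannot be told apart.

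Averaged over its spots, an array had a Cy5 signal of 58.3 to 1014, and the 4 arrays of slide 1 were the dimmest at 58.3 to 102. The scanner software called 9.42% to 37.8% of an array's spots well above background in Cy5. All 12 markers of the skeletal muscle fibre, such as *Ckm* and *Acta1*, were well above background on all 24 arrays. Of these 12, 4 had a log2 fold change above 0 and 8 below, with a median of -0.19. Only 1 passed without adjustment, *Mylpf*, which was higher in Hypox (log2 fold change 0.36, limma p = 0.000905). Of 7 lung markers only *Sftpc* passed the filter. It was well above background on 0 Norm and 4 Hypox arrays, so no fold change or P-value is given for it. Of 5 tested markers of adipocytes all had a log2 fold change below 0 and 2 passed without adjustment, *Cfd* (-0.56, limma p = 0.0177) and *Adipoq* (-0.33, limma p = 0.0309). The mean log2 ratio of these 5 lay between -0.68 and 0.96 in Norm and between -0.72 and -0.12 in Hypox. *Dcn* was the 1 of 5 fibroblast markers that passed (-0.37, limma p = 0.0293), in a list with 3 above and 2 below 0 and a median of 0.092. Without adjustment, 7.17% of all genes tested passed as higher and 5.08% as lower. Of the leukocyte markers 0 of 4 passed, and of the red blood cell markers 0 of 3. The part of these cells in the values of the HIF targets was not tested.

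The stretches before the starts of 4 of the tested genes are shown because they hold the letters to which HIF binds. The core of the hypoxia response element is ACGTG or GCGTG, searched on both strands. Each stretch is the 250 bases before the annotated start in RefSeq (build GRCm38.p6), written 5′ to 3′ on the strand of the gene, with a core on either strand in capitals. They lie at chr8:45999851-46000100 (minus strand, *Ankrd37*), chr7:110627407-110627656 (plus strand, *Adm*), chr9:121857797-121858046 (minus strand, *Higd1a*) and chr10:17722978-17723227 (plus strand, *Cited2*).
*Ankrd37*: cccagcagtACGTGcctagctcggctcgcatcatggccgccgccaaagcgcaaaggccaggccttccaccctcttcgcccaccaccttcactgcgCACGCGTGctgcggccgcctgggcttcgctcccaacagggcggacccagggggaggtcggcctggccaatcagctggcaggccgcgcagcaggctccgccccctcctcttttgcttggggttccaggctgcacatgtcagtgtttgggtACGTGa
*Adm*: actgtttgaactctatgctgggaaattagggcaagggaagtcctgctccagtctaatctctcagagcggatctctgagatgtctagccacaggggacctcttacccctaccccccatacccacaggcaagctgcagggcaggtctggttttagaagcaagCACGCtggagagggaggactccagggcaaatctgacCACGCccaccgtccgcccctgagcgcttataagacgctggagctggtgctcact
*Higd1a*: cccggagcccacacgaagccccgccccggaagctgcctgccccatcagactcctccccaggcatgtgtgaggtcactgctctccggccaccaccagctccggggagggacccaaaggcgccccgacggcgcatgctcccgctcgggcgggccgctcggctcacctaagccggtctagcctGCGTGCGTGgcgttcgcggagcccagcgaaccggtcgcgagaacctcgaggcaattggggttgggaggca
*Cited2*: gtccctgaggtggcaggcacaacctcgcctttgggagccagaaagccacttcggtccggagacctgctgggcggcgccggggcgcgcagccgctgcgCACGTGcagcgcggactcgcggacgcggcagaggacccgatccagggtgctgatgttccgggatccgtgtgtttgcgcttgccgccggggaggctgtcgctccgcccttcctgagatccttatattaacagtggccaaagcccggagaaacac

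The table held promoters of 7 of the 9 genes, and *Bhlhe40* and *Ndrg1* were not in it. In the window of 250 bases before to 50 bases after the start, all 7 genes held at least 1 core in at least 1 of their promoters, where 46.7% of all 27025 genes in the table did. ACGTG was found in 6 and GCGTG in 5 of the 7 genes, against 21.8% and 35.2% of all genes. *Ankrd37* had 4 cores, which began at -241, -155, -152 and -6 from the start, and the cores at -155 and -152 share letters. *Adm* had 2 GCGTG cores, both on the opposite strand, at -90 and -54. *Higd1a* had 2 overlapping GCGTG cores at -70 and -66 and an ACGTG core at 44 after the start. In *Cited2* the ACGTG of both strands fell on 1 palindrome, CACGTG, which is also the E-box to which factors such as BHLHE40 bind. Of the 7 genes, 2 (*Cited2* and *Wsb1*) held CACGTG, and so did 8.09% of all genes. These are matches of letters and no measured binding.

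The question was whether these targets of HIF were higher in muscle after 6 h at 12% oxygen. Of the 6 genes tested, 1 passed the threshold of 0.05 without adjustment, *Ankrd37*, which was higher in Hypox. Of all 9140 genes tested, 12.2% passed in either direction, 7.17% as higher and 5.08% as lower, so that 1 of 6 is near the background. None of the 6 passed after Benjamini-Hochberg adjustment over all genes tested (limma), where 0.339% of all genes did. The log2 fold changes of the 6 genes ran from -0.10 to 0.25 with a median of 0.0019, 3 above and 3 below 0, and the median over all genes tested was 0.029.

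**Figure D1:**
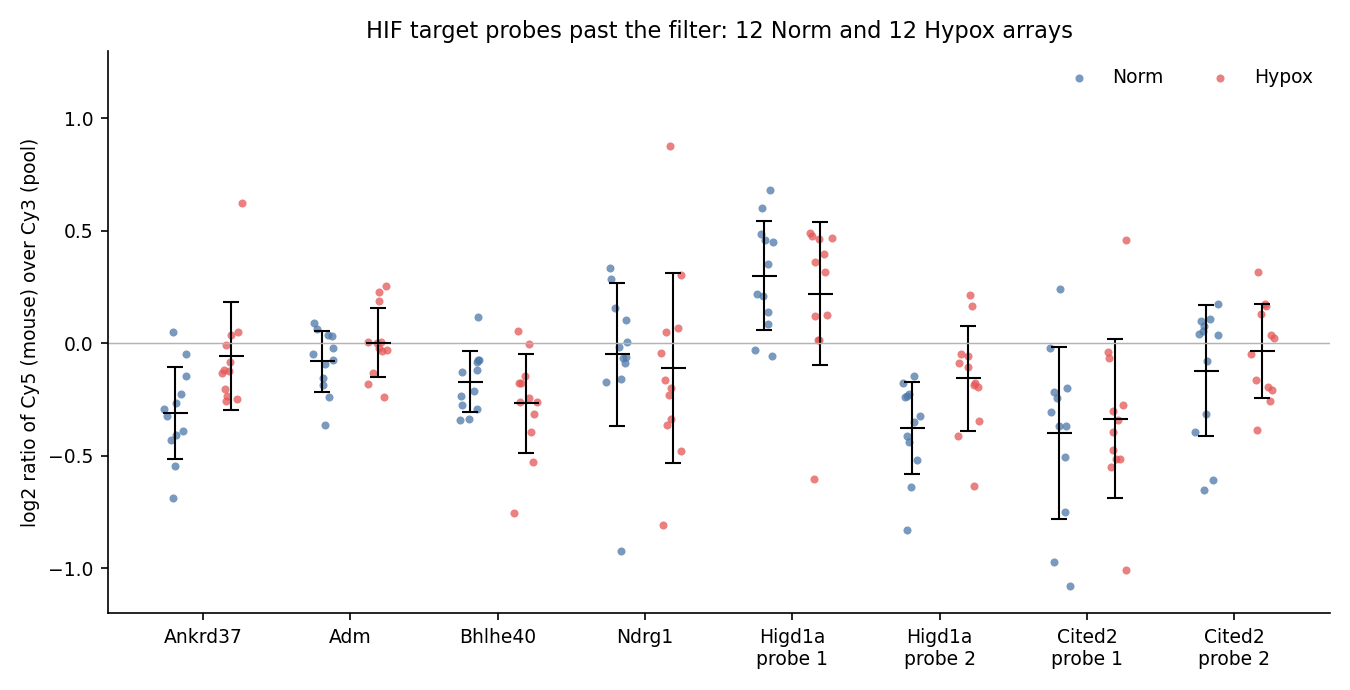
Log2 ratio of the mouse (Cy5) over the pool (Cy3) for the 8 probes past the filter. Each point is 1 array, blue for Norm and red for Hypox (n = 12 each), and bars give mean ± SD. The groups overlap for every probe, and all 12 Hypox values of *Ankrd37* lie above the Norm median of -0.31.

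*Ankrd37* encodes a small protein of ankyrin repeats that is known as a direct HIF target and has few other known roles. It was read by 1 probe (NM_001039562) on chromosome 8 from 47082404 to 47082463 in mouse build mm9, the build of the array. Across the Norm arrays its log2 ratio lay between -0.69 and 0.048 with a median of -0.31, and across the Hypox arrays between -0.26 and 0.62 with a median of -0.12. All 12 Hypox arrays lay above the Norm median, 2 of them lay above every Norm array, and 8 Norm arrays lay below every Hypox array, so that the groups overlapped only in part. The Norm mean was -0.31 ± 0.20 (SD, n = 12), and the Hypox mean was -0.058 ± 0.24 (SD, n = 12). The log2 fold change was 0.25, or 1.19-fold (standard error 0.091, 95% confidence interval 0.064 to 0.44, limma p = 0.0103, adjusted p = 0.246). By P-value *Ankrd37* ranked 382 of the 9140 genes.

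*Ankrd37* was higher in Hypox on 5 of 6 slides, by 0.13 to 0.46, and lower by 0.066 on slide 4, with an exact permutation test within slides of p = 0.00124 (two-sided). It kept a limma P-value under the threshold with each of the 24 arrays left out in turn. The log2 fold change then lay between 0.19 without Hypox replicate 12, which held the highest value, and 0.28. On Hypox replicate 12 the spot had a Cy5 signal of 74.8 over a local background of 51, where the background was 27 to 32 on the other arrays. On the authors' deposited values the fold change was 0.23 and did not pass (p = 0.177, limma), whereas the processed signals of the scanner software gave 0.72 (p = 0.0192). The probe was dim, at 2.46 times the local background, and the scanner software called it well above background on 7 Norm and 10 Hypox arrays.

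Several markers of the endothelium were higher in Hypox in the same arrays. Of 8 such genes 5 were tested, 4 with a log2 fold change above 0 and 1 below, from -0.15 to 0.38. Without adjustment 3 were higher in Hypox (*Esam*, *Cldn5* and *Cdh5*, limma log2 fold changes of 0.28, 0.30 and 0.38, lowest p = 0.00141). Of all genes tested, 7.17% passed as higher. Only 1 of the 5 markers was well above background on every array. The mean log2 ratio of the 5 lay between -0.29 and -0.095 on the Norm arrays and between -0.060 and 0.060 on the Hypox arrays. The part of these cells in the value of *Ankrd37*, or of *Adm*, was not tested.

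*Adm* encodes adrenomedullin, a secreted peptide that widens blood vessels, and was read by 1 probe (NM_009627) on chromosome 7 from 117773088 to 117773147 (mm9). The Norm arrays lay between -0.36 and 0.089 with a median of -0.062, and the Hypox arrays between -0.24 and 0.25 with a median of -0.010. Of the Hypox arrays 3 lay above every Norm array and 9 above the Norm median, 1 Norm array, replicate 11, lay below every Hypox array, and the rest overlapped. The log2 fold change was 0.083 (95% confidence interval -0.056 to 0.22, limma p = 0.231), positive on 5 of 6 slides. It was the other dim probe, at 2.42 times the background, and was well above background on 8 arrays of each group.

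*Bhlhe40* and *Cited2* encode regulators of transcription. BHLHE40 is a repressor of the basic helix-loop-helix class that also acts in the circadian clock. Its probe (NM_011498, chromosome 6 from 108616309 to 108616368, mm9) gave log2 ratios between -0.34 and 0.12 on the Norm arrays (median -0.17) and between -0.76 and 0.054 on the Hypox arrays (median -0.25). It had the lowest log2 fold change of the 6 genes, -0.10 (95% confidence interval -0.26 to 0.065, limma p = 0.23), with 3 Hypox arrays below every Norm array. Without Hypox replicate 2 it was -0.052. It was higher in Hypox on 2 of 6 slides.

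CITED2 competes with the HIF alpha subunit for the coactivator CBP and so restrains HIF. *Cited2* was read by 2 probes (NM_010828) on chromosome 10, from 17444502 to 17444561 and from 17444690 to 17444749 (mm9). The brighter probe, which stood for the gene, gave log2 ratios between -1.08 and 0.24 on the Norm arrays (median -0.34) and between -1.01 and 0.46 on the Hypox arrays (median -0.37). It had the widest spread among the 6 genes in Norm, with an SD of 0.38. Its log2 fold change was 0.064 (95% confidence interval -0.22 to 0.35, limma p = 0.654), and that of the other probe, fitted over all probes past the filter, was 0.088 (p = 0.399, limma). With median centring in place of loess, which moved the median of all genes tested to 0.25, the exact permutation test within slides gave 0.41 (p = 0.0163) for the brighter and 0.31 (p = 0.0448) for the other probe, where limma did not pass for the gene (p = 0.322). The probes lie 188 bases apart both in the genome and in the transcript, and their fold changes differed by 0.024 (exact permutation within slides, p = 0.876).

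*Ndrg1* encodes a stress-responsive cytoplasmic protein that Schwann cells need to keep their myelin. Its probe (NM_008681, chromosome 15 from 66761057 to 66761116, mm9) gave log2 ratios between -0.92 and 0.33 on the Norm arrays (median -0.038) and between -0.81 and 0.88 on the Hypox arrays (median -0.18). The highest and the lowest arrays of the 24 thus belonged to different groups, and all others overlapped. The log2 fold change was -0.060 (95% confidence interval -0.35 to 0.23, limma p = 0.679), and the differences within slides ran from -0.44 to 0.55. Of 4 tested markers of peripheral nerve, 2 were lower in Hypox without adjustment (*Prx* and *Pmp22*, limma log2 fold changes of -0.28 and -0.41, lowest p = 0.0281), with a mean log2 ratio of the 4 between -0.49 and 0.43 in Norm and between -0.78 and 0.11 in Hypox. Of the 4 markers 0 were well above background on every array, and of all genes tested 5.08% passed as lower. The part of peripheral nerve in the value of *Ndrg1* was not tested.

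*Higd1a* encodes a small protein of the mitochondrial inner membrane that associates with the respiratory chain, and its 2 probes (NM_019814, chromosome 9) gave different answers. The probe from 121758675 to 121758734 (mm9) was the brightest of the 11, at 168 times the background, and stood for the gene. Its log2 ratios lay between -0.055 and 0.68 on the Norm arrays (median 0.28) and between -0.60 and 0.49 on the Hypox arrays (median 0.34), of which Hypox replicate 2 lay far below all others. Its log2 fold change was -0.079 (95% confidence interval -0.31 to 0.15, limma p = 0.483), with 3 of 6 slides higher, and was -0.0040 without Hypox replicate 2.

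The other *Higd1a* probe, from 121761621 to 121761680 (mm9) and at 38.8 times the background, gave log2 ratios between -0.83 and -0.15 on the Norm arrays (median -0.34) and between -0.63 and 0.21 on the Hypox arrays (median -0.14). Of the Hypox arrays 6 lay above every Norm array and 9 above the Norm median. Fitted over all probes past the filter, its log2 fold change was 0.22 (95% confidence interval 0.037 to 0.41, limma p = 0.0208, adjusted p = 0.256), higher on 5 of 6 slides (exact permutation within slides, two-sided, p = 0.0379). With this probe in its place *Higd1a* would pass the threshold. With an array left out in turn, the exact test kept a P-value under the threshold in 15 of 24 cases, from 0.17 without Hypox replicate 7 (p = 0.0949) to 0.27, and without the 4 arrays of slide 1 the value was 0.23 (p = 0.0687). The same exact test of *Ankrd37* passed in 24 of 24 cases and without slide 1 (p = 0.00514). Under the other scalings the second *Higd1a* probe passed the exact permutation test throughout, at 0.19 on the processed signals (p = 0.00227), 0.26 with Cy5 alone (p = 0.041) and 0.23 at a normexp offset of 10 (p = 0.0338). Its value rose to 0.60 with median centring (p = 0.00853) and 0.44 on the deposited values (p = 0.0069), where *Ankrd37* gave p = 0.072 by the same exact test. The median of all genes tested also moved, to 0.25 with median centring and 0.085 on the deposited values. The brightest *Higd1a* probe moved as well, to 0.44 and 0.27.

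The difference between the *Higd1a* probes was itself tested. The fold change of the second probe exceeded that of the brightest by 0.30 and did so on 6 of 6 slides (exact permutation within slides, two-sided, p = 0.0108, and p = 0.0215 after adjustment over the 2 genes with 2 probes). With each array left out in turn the difference stayed between 0.24 and 0.36, with a P-value under the threshold in 24 of 24 cases. Without loess it was 0.16 with median centring (p = 0.152) and 0.17 on the deposited values (p = 0.138), which did not pass. After group and slide means were removed, the log2 ratios of the probes correlated over the 24 arrays at r = 0.50 (p = 0.0444, adjusted p = 0.0888) and rho = 0.41 (p = 0.0795, adjusted p = 0.159, permutation within slides), and r was 0.21 without the 2 arrays farthest from the median of the brightest probe, so that this relation rested on those arrays. The probes start 280 bases apart in the transcript and 2946 bases apart in the genome, so that more sequence lies between them in the genome than in the transcript.

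**Figure D2:**
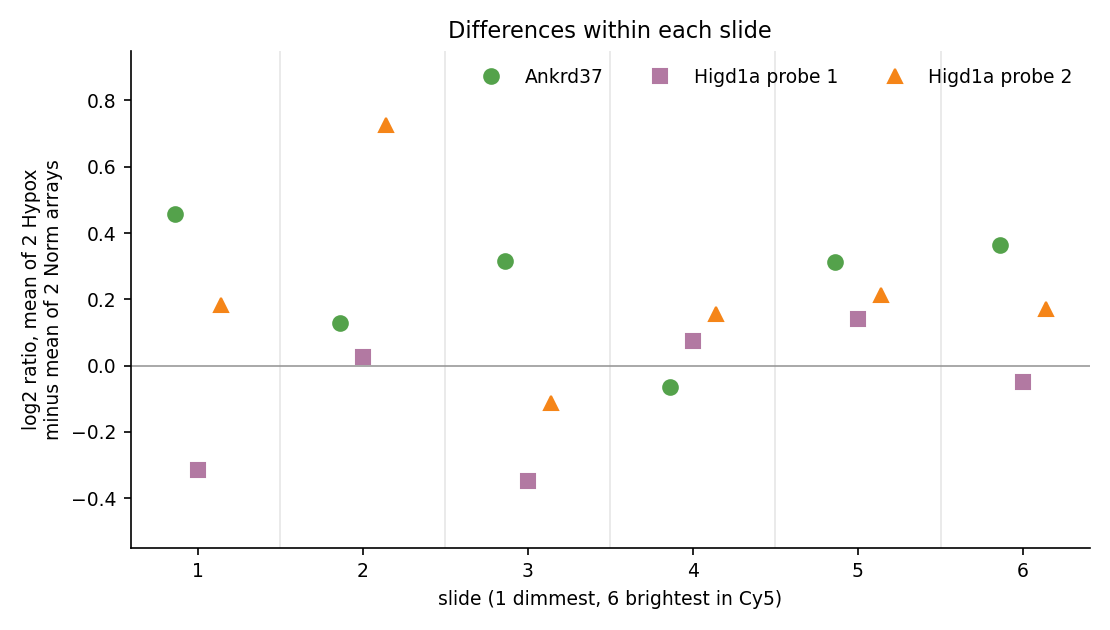
Difference in log2 ratio, mean of the 2 Hypox minus mean of the 2 Norm arrays, within each of the 6 slides, for *Ankrd37* (circles) and the brightest (probe 1, squares) and second (probe 2, triangles) probe of *Higd1a*. The triangle lies above the square on 6 of 6 slides, and *Ankrd37* lies above 0 on 5 of 6.

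The 3 remaining genes were not measured above background. MXI1 pairs with MAX and opposes MYC, ERO1 enzymes use oxygen to form disulfide bonds in the endoplasmic reticulum, and WSB1 is the part of a ubiquitin ligase that recognises its substrates. The probe of *Mxi1* (NM_001008542, chromosome 19 from 53450238 to 53450297, mm9) was at 1.16 times the background, with Cy5 signals of 28.9 to 43.4 in Norm and 27.5 to 42.6 in Hypox, and was well above background on none of the 24 arrays. The probe of *Ero1l* (NM_015774, chromosome 14 from 45904192 to 45904251, mm9) was at 1.25 times the background, with Cy5 signals of 29.5 to 44.4 in Norm and 34.4 to 46.5 in Hypox, and was likewise well above background on none. No fold change is given for these genes.

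The probe of *Wsb1* (NM_001042565, chromosome 11) lies from 79054246 to 79055104 in mm9, a span of 859 bases. It was well above background on 1 of 24 arrays, Norm replicate 4 of slide 1, the dimmest array, where its Cy5 signal was 785 and its log2 ratio 6.90. The Hypox signals lay between 28.8 and 43.6, and the probe averaged 1.59 times the background with that spot included. No fold change is given, since the Norm mean of 0.51 ± 2.02 (SD, n = 12) holds that spot.

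**Figure D3:**
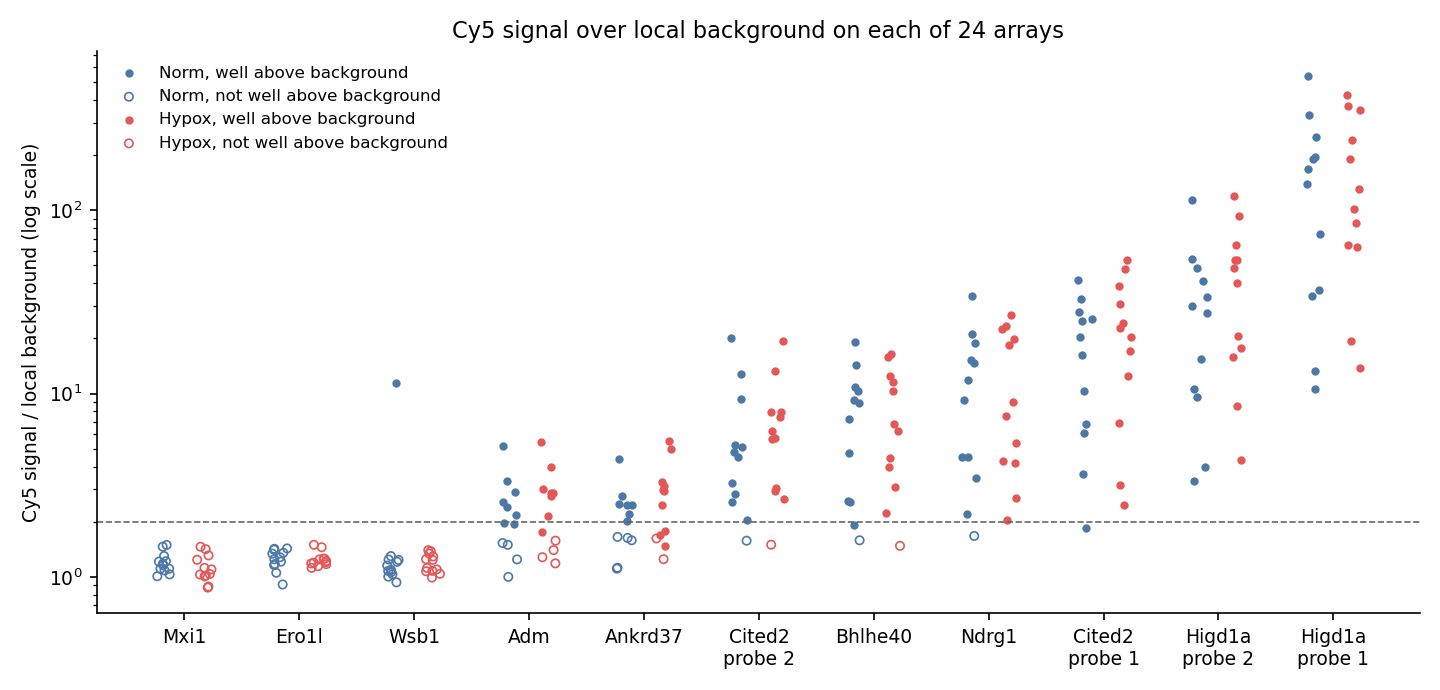
Cy5 signal over local background on each of the 24 arrays (log axis) for all 11 probes, ordered by their mean, blue for Norm and red for Hypox. Filled points were well above background by the scanner software, open points were not, and the dashed line marks the filter of 2 times the background. *Mxi1*, *Ero1l* and, but for 1 Norm spot, *Wsb1* lie below the line.

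No pair of the 6 tested genes passed a test of correlation over the 24 arrays after adjustment. With group and slide means removed, 15 pairs gave Pearson's r between -0.53 and 0.57 with a median of -0.076, 6 of them above 0. Permutation within slides gave 2 pairs with an unadjusted P-value under the threshold and 0 after adjustment over the 15 pairs. *Ankrd37* and *Cited2* were opposed, at r = -0.53 (permutation p = 0.0241, adjusted p = 0.218) and rho = -0.54 (permutation p = 0.0137, adjusted p = 0.205), and r was -0.41 without the 2 arrays farthest from the median of *Ankrd37*. *Bhlhe40* and *Higd1a* gave r = 0.57 (permutation p = 0.0424, adjusted p = 0.218) and rho = 0.45 (permutation p = 0.0657, adjusted p = 0.329), and r was 0.25 without the 2 arrays farthest from the median of *Bhlhe40*, Hypox replicate 2 and Norm replicate 10, so that this relation rested on those arrays. No member was among the 3 genes most like *Ankrd37* over the arrays. These were *Sox4* (r = 0.83, log2 fold change 0.23, limma p = 0.0297), *Commd5* (r = 0.81, log2 fold change -0.0043, limma p = 0.972) and *S100a13* (r = 0.79, log2 fold change 0.13, limma p = 0.296), given as a description over 24 arrays and 9056 genes compared.

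The rest of the pathway was read from lists of other genes. Their counts stand beside all 9140 genes tested, of which 12.2% passed without adjustment, 7.17% as higher and 5.08% as lower. Of the HIF subunits and the hydroxylases and VHL that control them, 0 of 8 tested passed without or with adjustment (limma), with a median log2 fold change of 0.042. The highest was *Hif1a*, the alpha subunit itself, at 0.29 (p = 0.246, limma), and it was 0.037 without Hypox replicate 12, the highest array at a log2 ratio of 3.04. Of 17 tested targets in glycolysis and glucose uptake 1 passed, lower in Hypox, which was *Gys1*, the muscle glycogen synthase (-0.20, limma p = 0.0417, but 0.24 with median centring and 0.045 on the deposited values), and the list had a median of -0.067. Of 10 tested targets in angiogenesis and vascular tone 2 passed, both higher, with a median of 0.0098. They were *Angptl4*, an inhibitor of lipoprotein lipase (0.66, limma p = 0.00032), and the chemokine *Cxcl12* (0.35, limma p = 0.0397).

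Of 26 other tested HIF targets 5 passed, 3 higher and 2 lower, with a median of 0.057. Of all genes tested, 12.2% passed in either direction. The higher ones were *Ddit4*, an inhibitor of mTOR (0.53, limma p = 0.00147), *Errfi1*, an inhibitor of EGF receptor signalling (0.42, limma p = 0.00461), and *Jmjd6* (0.18, limma p = 0.0499). The lower ones were *Rora*, a nuclear receptor of the clock (-0.41, limma p = 0.000195), and *Vldlr*, a lipoprotein receptor (-0.36, limma p = 0.000474, but 0.11 with median centring). With each array left out, *Gys1* passed in 14, *Cxcl12* in 15 and *Jmjd6* in 7 of 24 cases, and the other 5 called genes in 24 of 24 (limma). No gene of the 4 lists passed after adjustment over all genes, against 0.339% of all genes tested.

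**Figure D4:**
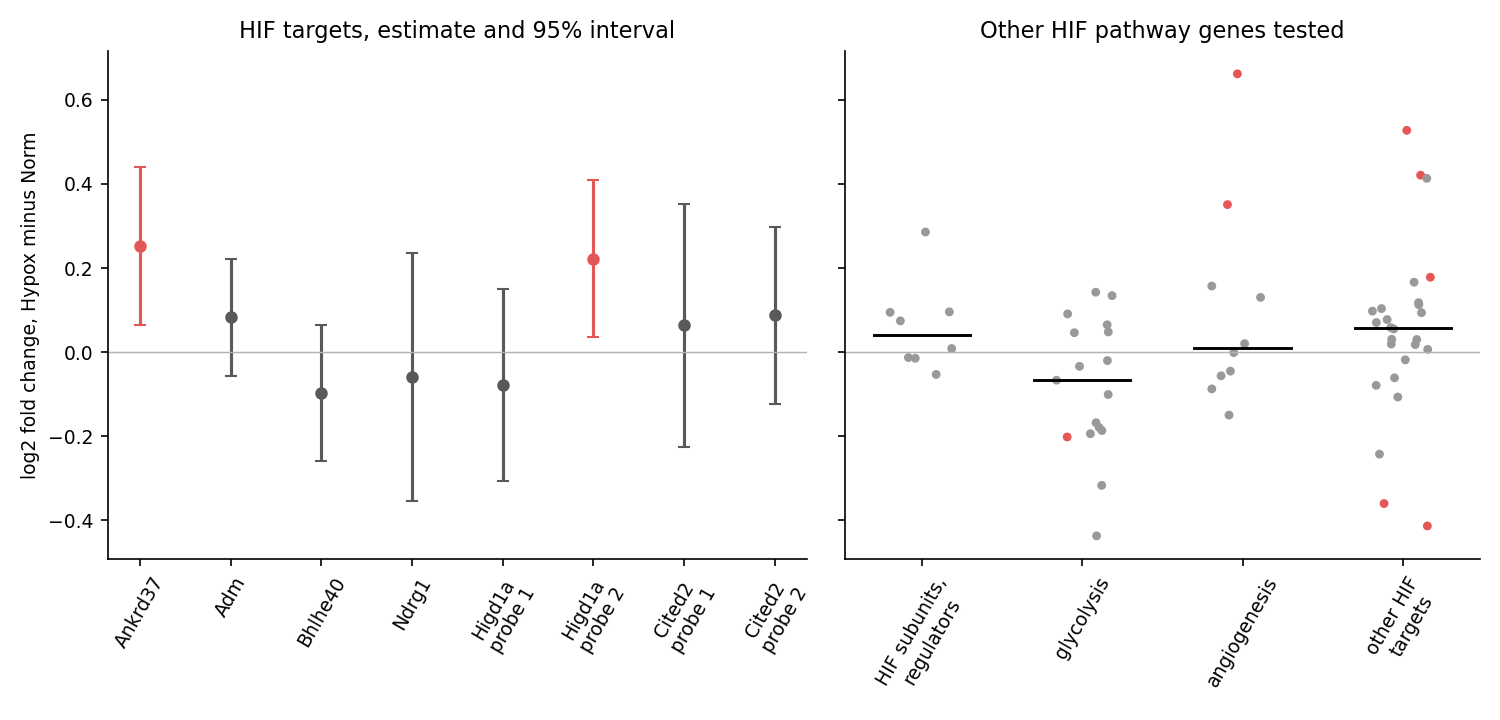
Left, log2 fold change of Hypox over Norm with its 95% confidence interval for the 8 probes past the filter, fitted over all probes, with red for an unadjusted P-value under 0.05. Right, log2 fold changes of the other HIF pathway genes tested (points, red as on the left) and the median of each list (bar), which lay between -0.067 and 0.057.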

How the data were processed

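Agilent Feature Extraction 10.7.3.1 made the scanner output of the 24 two-colour arrays, and the authors deposited it as intensity per spot (mean signal, local background and processed signal per channel) without scaling between arrays. The authors also deposited normalized log2 values from GeneMaths XT for 21335 spots, whose use of the Cy3 channel is not given in the sources used here. Sample titles gave the groups. The dyes follow the sample descriptions, because the dyes in the labels of some Hypox samples differ from them. For this report, intensity was corrected with normexp (offset 50) without flagged readings (7260) and with 0 saturated spots, loess was run on the log2 ratios of each array, and duplicate spots were averaged. Probes took their gene from the RefSeq accession (27325), the symbol (3523) or a synonym (551). A probe was kept where the ratio of Cy5 signal to background averaged over 2 and at most 4 arrays lacked a value. Each of the 9140 genes was represented by its brightest probe.

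The test was limma's moderated test with no block, 12 Hypox against 12 Norm arrays of 1 mouse each, and P-values were adjusted by Benjamini-Hochberg over the 9140 genes. Exact tests enumerated 46656 relabelings within slides, and correlations were tested with 100000 permutations within slides. The number of arrays limits the precision. All 9 genes are named, and from each other list of HIF pathway genes the genes past the unadjusted threshold of 0.05, at most 5 per direction, or else the gene with the largest change. Marker lists are given by counts and ranges, and the marker genes named were chosen after their values were seen. One gene of the marker lists is not reported here, and its list was summarised without it. The members and lists were chosen with earlier results of these data known, and the difference between probes was tested after their values were seen. In a simulation of this comparison (9140 genes, 200 of them shifted by 1 in log2), limma recovered 99% of the shifted genes with 13 false calls. Recovery of smaller shifts, such as the log2 fold changes of -0.10 to 0.25 of the 6 members tested, was not tested. The alternatives were other scalings, filters, probe rules and tests, blocks for slide or replicate number, array weights and leaving out each array. Software was R 4.3.3 with limma 3.58.1 and Python 3.11.15 with scipy 1.17.1.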

Additional observations from a re-analysis of the deposited data

How the results depend on the processing

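*Ankrd37* was higher in Hypox under all 14 alternatives and with each of the 24 arrays left out, and passed the unadjusted threshold under 13 of the 14. The filters, probe rules, blocks and the methods' t-test left its fold change as in the reported fit. Under these only the P-value could differ, so they say nothing about its direction. On the deposited values no member passed (0 of 6, *Ankrd37* p = 0.177, limma), where 5.36% of all genes did, against 12.2% in the reported fit. The median log2 fold change there was 0.17 for the members and 0.085 for all genes tested. With median centring in place of loess the median of the members was 0.31, where the median of all genes tested also moved, to 0.25. There *Bhlhe40* turned to 0.16, *Ndrg1* to 0.23 and *Higd1a* to 0.44, and none of these 3 passed. On the deposited values *Ndrg1* was 0.11 and *Higd1a* 0.27. *Higd1a* also turned to 0.072 as the mean of its probes, since these differ in sign, and to 0.019 with array weights. *Bhlhe40* was -0.018 with array weights. *Adm* and *Cited2* kept their direction under all 14 alternatives, of which the blocks and the methods' t-test could not change it. Neither passed limma's test under any, but with median centring *Cited2* passed the exact test within slides (p = 0.0163).

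With each array left out, the members that passed stayed at 1 and their median lay between -0.031 and 0.033. *Bhlhe40* lay between -0.13 and -0.052 and *Higd1a* between -0.11 and -0.0040. *Ndrg1* lay between -0.15 and 0.0036, reversed only without Hypox replicate 2. *Cited2* lay between -0.0085 and 0.12, reversed only without Hypox replicate 6. The fold changes of the *Cited2* probes differed by -0.068 to 0.12 with an array left out, by -0.10 with median centring, -0.030 with Cy5 alone, -0.11 on the deposited values and -0.020 without slide 1. The causes of these changes were not tested.

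Median centring left 0 targets of glycolysis, 1 of angiogenesis and 0 other HIF targets past the threshold, and 0.35% of all genes. The deposited values, where 5.36% of all genes passed, left 0 of glycolysis and 3 others. Cy5 alone, the methods' t-test and a normexp offset of 10 each left 1 of angiogenesis, where 8.02%, 12.2% and 12.1% of all genes passed. The offset of 10 and the mean of a gene's probes left 0 of glycolysis. The latter gave 1 HIF subunit or regulator, where 13.2% of all genes passed. No filter, the slide as a block and array weights gave 2 of glycolysis, where 8.68%, 14.2% and 18.8% of all genes passed. The offset of 10, the fit without slide 1 all alternatives for the difference between probes and for the exact test of each probe, and those for single genes of the other lists, were chosen after seeing the data.

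The replicate numbers are shared by both groups, and the reported fit did not pair the mice by them. Arrays of the same number correlated at over 0.1 in 3 of 12 pairs and shared a slide in 1. These values alone cannot settle whether the numbers pair the mice. With the replicate number as a block *Ankrd37* kept p = 0.0141 (limma) and 1 member passed. *Adm* and *Ankrd37* lay near 2 times the background, where the offset added to the signal shrinks ratios. At an offset of 10 *Ankrd37* was 0.43.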
